A study of Mus musculus with 3 samples.

Results

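Posterior frontal sutures of C57BL/6 mice were profiled on 3 one-colour Agilent arrays, and the genes described here are the Wnt ligands and the receptors that bind them. The arrays carried RNA from Runx2+/+ (wild-type) sutures at postnatal day 5 (P5), wild-type sutures at day 7 (P7) and Runx2+/- sutures at P7, with 1 array per group. All 3 groups share the strain and the tissue, and none was treated. The labels do not give the number or sex of the mice behind an array, nor how the Runx2 allele was disrupted. The members were a fixed list of 34 gene symbols, matched to the gene names in the scanner files: 19 Wnt ligands, 10 Frizzled (Fzd) receptors, and 5 coreceptors or other Wnt receptors (Lrp5, Lrp6, Ror1, Ror2 and Ryk). All 34 were found among the 34797 gene names on the arrays, through 43 probes. With 1 array per group there is no replicate check and no p-value.

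Wnt proteins are secreted, lipid-modified signals that act over short distances. A Wnt held by a Frizzled together with Lrp5 or Lrp6 stabilises β-catenin, which drives osteoblast differentiation and bone mass, whereas Ror2 and Ryk pass on signals, typically of Wnt5a, that do not need β-catenin. Inactivating changes in Lrp5 and in Wnt1 cause fragile bone in people and mice, and Wnt10b promotes bone formation at the expense of fat.

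The array values are intensities from the scanner software. A level is given below as the log2 signal relative to the 75th percentile of all probes on the same array, so that 0 is that percentile, and the ± beside it is the error that the software attached to the spot, which covers the measurement of the spot and not the variation between animals. A probe is called detected where the software marked it well above background. In wild type at P7 only 29.2% of probes were detected, against 40.08% at P5 and 47.33% on the Runx2+/- array, and the lowest detected level was -0.78 there against -2.12 and -3.25. Dim members were therefore lost most often in wild type at P7. A difference was taken where a gene's brightest probe was detected on both arrays, became a lower bound where it was detected only on the higher array, and had no order otherwise. A gene was called where it lay at least 2-fold apart. Repeated spots gave an SD of a log2 difference of 0.25 for age and 0.22 for genotype. Probes for 1 gene scattered further (root-mean-square SD 0.46 for age and 0.57 for genotype). Within transcripts the difference rose towards the 3′ end by a median of 0.20 per kb for age and 0.14 per kb for genotype. Xist, expressed from an inactive X chromosome, stood at 2.45 and 1.94 on the P5 and P7 wild-type arrays and at -3.10 on the Runx2+/- array, while the Y-linked Eif2s3y was detected at P5 (-0.35) and on the Runx2+/- array (2.37) but not on the P7 wild-type array, so sex-linked transcripts differed between the arrays, and the labels do not give the sex. The P7 wild-type and Runx2+/- arrays thus differed in sex-linked transcripts as well as in genotype. With 1 array each, a difference of sex and one of genotype cannot be told apart in that comparison. The part of RNA quality and sex in the results below was not tested. Runx2 itself, the transcription factor required for osteoblast formation, stood at 2.38, 1.46 and 1.08 on the P5, P7 wild-type and Runx2+/- arrays with its brightest probe, a genotype difference of -0.38. Its other probes were not detected on the P7 wild-type array. Where the disrupted part of the gene lies is not given, so these levels do not settle the genotype labels.

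Frizzled receptors were detected more widely than the ligands. Of 34 members, 22 (64.7%) were detected on at least 1 array, where the share among all genes was 57.3%, and 15 (44.1%) on all 3, against 36.8% of all genes. Among the 19 ligands 9 were detected on at least 1 array and 5 on all 3: Wnt1, Wnt5a, Wnt5b, Wnt9a and Wnt10b. Among the 10 Frizzleds 9 were detected on at least 1 array and 6 on all 3: Fzd1, Fzd2, Fzd4, Fzd5, Fzd7 and Fzd9. Lrp5, Lrp6, Ror2 and Ryk were detected on all 3 arrays.

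Wnt4, Wnt6, Wnt11, Wnt16, Fzd3, Fzd6 and Fzd8 were detected at P5 and on the Runx2+/- array but not on the P7 wild-type array. The remaining 12 members were detected on no array. They were the ligands Wnt2, Wnt2b, Wnt3, Wnt3a, Wnt7a, Wnt7b, Wnt8a, Wnt8b, Wnt9b and Wnt10a, the receptor Fzd10 and the orphan receptor Ror1. Their 14 probes gave 2.49 to 7.33 intensity units at P5, 2.86 to 6.08 in wild type at P7 and 2.76 to 11.8 on the Runx2+/- array, where the lowest detected signals of any probe were 12.0, 13.3 and 13.1. No order can be read among these values.

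Several Wnt genes lie beside each other in the mouse genome, and 2 of 4 such pairs had the same detection. Wnt10b and Wnt1 on chromosome 15, on opposite strands 11.7 kb apart in RefSeq (GRCm38.p6), were both detected on all 3 arrays. Wnt9a was detected on all 3 arrays while Wnt3a, 16.1 kb away on chromosome 11, was detected on none. Wnt6 was detected on 2 arrays and Wnt10a, 6.70 kb away on chromosome 1, on none. Wnt3 and Wnt9b, whose RefSeq gene models overlap on chromosome 11, were not detected.

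**Figure D1:**
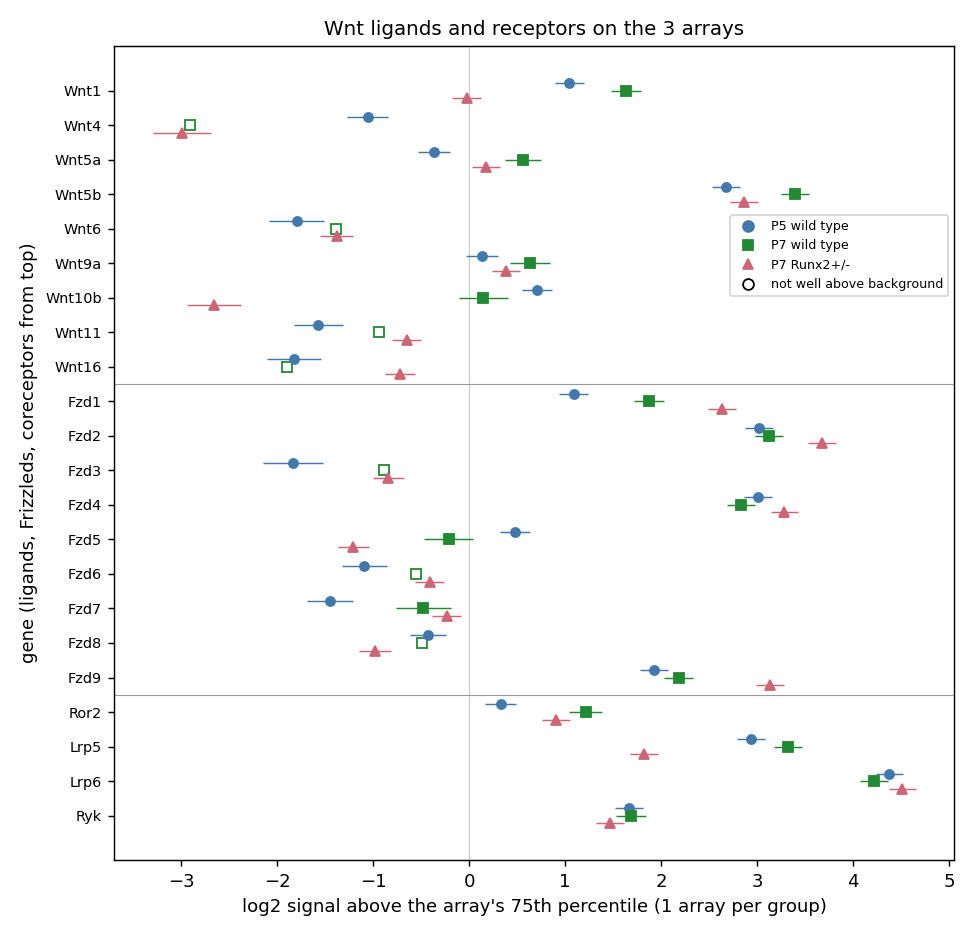
Level of each of the 22 members detected on at least 1 array (brightest probe), as log2 signal relative to the array's 75th percentile on the horizontal axis, with 1 point per array, the software's spot error as a bar, and open symbols where the probe was not well above background. Wnt10b lay at -2.66 on the Runx2+/- array, and the open symbols all belong to the P7 wild-type array.

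Among the ligands, Wnt10b differed most between the arrays. Its probe (chromosome 15, 98602209 to 98602268, minus strand, mm9) gave 84.9 ± 9.08 intensity units at P5, 25.2 ± 4.49 in wild type at P7 and 19.7 ± 3.84 on the Runx2+/- array, which are levels of 0.71, 0.15 and -2.66. The 75th percentile of signal was 52.1, 22.8 and 124.3 on the 3 arrays, and of 15 members detected throughout Wnt10b alone had less raw signal in Runx2+/- than in wild type at P7. Wnt1 (chromosome 15, 98624201 to 98624260, plus strand) gave 107.3 ± 11.1, 70.5 ± 7.74 and 122.2 ± 12.6 intensity units, which are levels of 1.04, 1.63 and -0.02. Its other probe, nearer the 5′ end, gave 2.98 to 3.30 intensity units and was detected on no array.

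The noncanonical ligands Wnt5a and Wnt5b kept closer levels. Wnt5a stood at -0.36 at P5, 0.56 in wild type at P7 and 0.18 on the Runx2+/- array. Wnt5b stood at 2.67, 3.40 and 2.86, and Wnt9a, a ligand of joints and the skull, at 0.13, 0.63 and 0.38. For these 3 ligands the P7 wild-type array was the highest of the 3. Wnt4 can signal with or without β-catenin, and its dimmer probe was detected on no array. Its brightest probe gave 25.0 ± 3.73 intensity units (-1.06) at P5 and 15.6 ± 3.29 (-2.99) on the Runx2+/- array. On the same arrays Wnt16, which acts on cortical bone, was at -1.82 and -0.72, Wnt11, a ligand for cell movement, at -1.57 and -0.65, and Wnt6 at -1.79 and -1.38. Wnt11 and Wnt16 were higher on the Runx2+/- array and Wnt4 was lower under each scaling, whereas the Wnt6 difference of 0.42 ± 0.33 turned to -0.24 with normexp and was 1.1002 with the brightness trend removed.

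The Frizzleds most often stood highest on the Runx2+/- array. Fzd1 gave 110.8 ± 11.4, 83.35 ± 8.89 and 770.3 ± 77.1 intensity units, levels of 1.09, 1.87 and 2.63. Fzd9, a receptor required for normal bone formation in mice, gave 198.5 ± 20.0, 103.2 ± 10.75 and 1091 ± 109, levels of 1.93, 2.18 and 3.13. Fzd2 stood at 3.02, 3.12 and 3.67, Fzd4, the receptor that also binds norrin, at 3.01, 2.83 and 3.28, and Fzd7 at -1.45, -0.48 and -0.23. These 5 receptors were each highest on the Runx2+/- array. Fzd5 ran the other way, with 72.5 ± 7.65, 19.6 ± 3.44 and 53.9 ± 6.00 intensity units and levels of 0.48, -0.21 and -1.21. Fzd3, Fzd6 and Fzd8 stood at -1.83, -1.09 and -0.43 at P5 and at -0.84, -0.41 and -0.98 on the Runx2+/- array.

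Of the coreceptors, Lrp5 stood lowest on the Runx2+/- array, while the probes of Lrp6 did not go the same way. Lrp5 (chromosome 19, 3584971 to 3585030, minus strand) gave 399.6 ± 40.0, 227.2 ± 23.0 and 440.5 ± 44.2 intensity units, levels of 2.94, 3.32 and 1.83. Lrp6 (chromosome 6, 134400440 to 134400499, minus strand) gave 1082 ± 108, 422.1 ± 42.3 and 2837 ± 284, levels of 4.38, 4.21 and 4.51. Its other probe, nearer the 5′ end, stood at 2.99, 1.98 and 1.98. Ror2, the receptor tyrosine kinase for Wnt5a, stood at 0.33, 1.22 and 0.91, and Ryk, a Wnt receptor with an inactive kinase domain, at 1.66, 1.68 and 1.47.

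The comparison of P7 with P5 in wild type asks what changes as the suture nears closure. No member was called in either direction among the 16 that had an order, where 6.33% of all ordered genes were called higher and 3.28% were called lower. The median log2 difference of the 16 was 0.32, with 11 above 0 and 5 below. For all 14281 ordered genes it was 0.03, with 7426 above 0 and 6855 below. The largest positive values were those of Fzd7 (0.97 ± 0.37), Wnt5a (0.92 ± 0.25), Ror2 (0.89 ± 0.24), Fzd1 (0.78 ± 0.21) and Wnt5b (0.72 ± 0.21). Wnt1 was 0.59 ± 0.22, Wnt9a 0.50 ± 0.26 and Lrp5 0.38 ± 0.21. The negative values were Fzd5 at -0.69 ± 0.30, Wnt10b at -0.56 ± 0.30, Fzd4 at -0.18 ± 0.21, Lrp6 at -0.16 ± 0.20 and Fzd8 with a bound of -0.06. Fzd9 was 0.25 ± 0.21, Fzd2 0.10 ± 0.21 and Ryk 0.02 ± 0.22, and with normexp Fzd2, Fzd9 and Lrp5 turned negative, as did Ryk under each of the 7 other scalings. Normexp background correction was run with an added offset of 50 intensity units. After it the member median was -0.23, with the median of all genes at -0.25, and the split of all calls went from 65.9% to 3.31% higher. That split was 54.6% with cyclic loess and 53.9% with the brightness trend removed.

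The comparison of Runx2+/- with wild type at P7 asks how the loss of 1 copy of Runx2 bears on the suture. Wnt10b was 7.01-fold lower on the Runx2+/- array (log2 difference -2.81 ± 0.38), Wnt1 was 3.15-fold lower (-1.66 ± 0.22) and Lrp5 was 2.82-fold lower (-1.49 ± 0.21). These 3 were the only called members of 18 with an order, and none was called higher. Of the 18, 3 had only a lower bound, so their differences can be larger than the value used. Over all 14364 ordered genes, 13.8% were called lower and 5.2% called higher, so the members' share of lower calls was near that of all genes. In RNA from whole sutures, fewer cells that make a transcript and less transcript per cell cannot be told apart. The median of the 18 was -0.08, with 9 above and 9 below 0. For all ordered genes it was 0.13, with 8451 above 0 and 5913 below. The sign of the members' median turned with the scaling: it was 0.15 with cyclic loess, 0.12 with normexp and 0.09 with quantile normalization.

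The other ligands measured on both P7 arrays lay within 2-fold. Wnt5b was at -0.54 ± 0.21, Wnt5a at -0.38 ± 0.24 and Wnt9a at -0.25 ± 0.25. Wnt11 and Wnt16 had lower bounds of 0.12 and 0.06, which do not place them within 2-fold. With cyclic loess the Wnt16 bound was 0.90. Of 7 ordered Frizzleds 6 were above 0, where 8451 of all 14364 ordered genes were. Probes as bright as Fzd1, Fzd2, Fzd4 and Fzd9 had median differences from 0.19 to 0.28. For those as bright as Fzd5 and Fzd7 the median was -0.70. Fzd9 was 0.95 ± 0.21 higher, Fzd1 0.76 ± 0.21, Fzd2 0.55 ± 0.21, Fzd4 0.45 ± 0.21 and Fzd7 0.24 ± 0.33, and Fzd6 had a bound of 0.14. Fzd5 was at -0.99 ± 0.30, just inside 2-fold. Lrp6 was at 0.30 ± 0.20, Ryk at -0.22 ± 0.21 and Ror2 at -0.31 ± 0.23. This comparison and that of age share the P7 wild-type array, so a high or low reading there enters both with opposite sign.

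**Figure D2:**
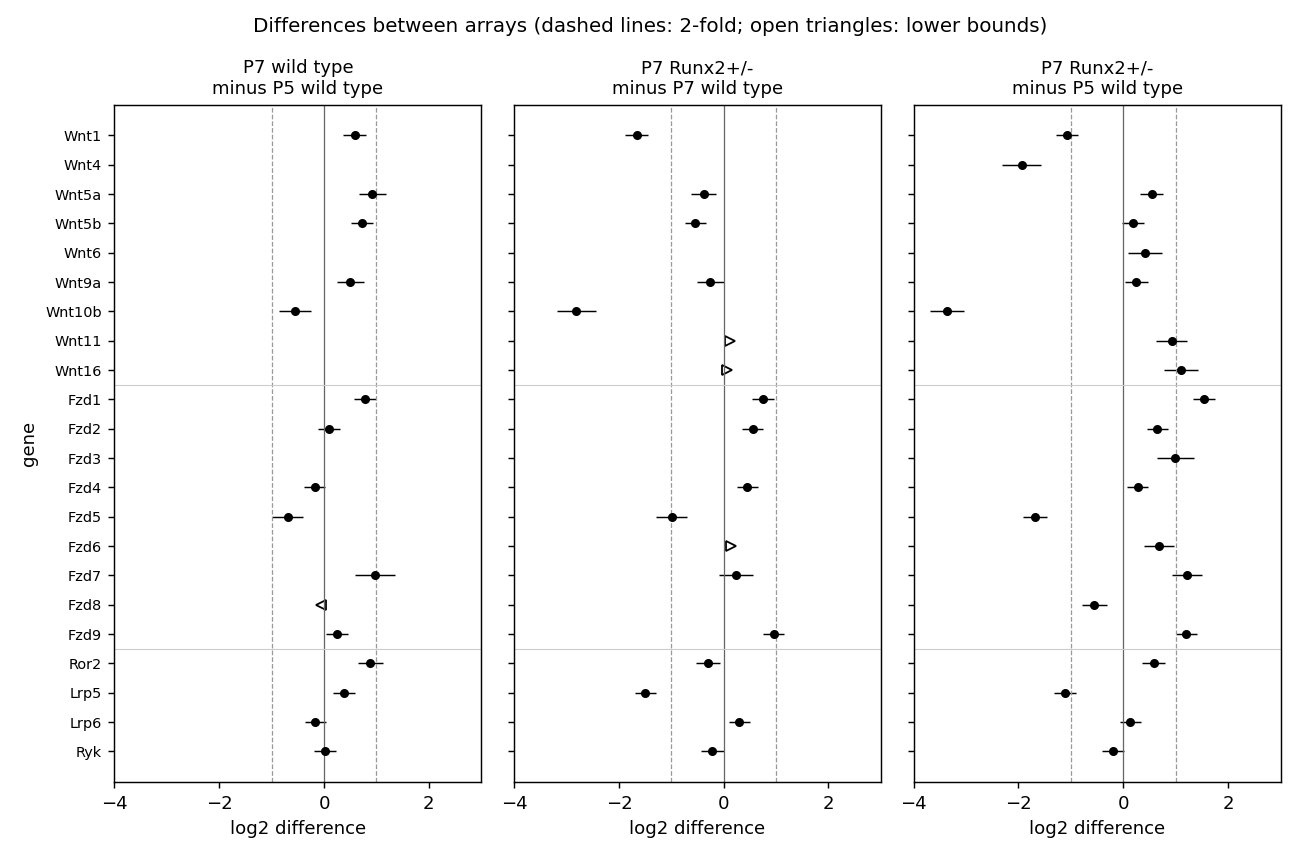
Log2 difference of the 22 detected members between arrays for age (left), genotype (middle) and Runx2+/- at P7 against wild type at P5 (right), with the propagated spot error as bars and open triangles for lower bounds. In the middle panel Wnt10b (-2.81), Wnt1 (-1.66) and Lrp5 (-1.49) lie beyond the dashed 2-fold lines.

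The 3 called members differed in how much they depended on the scaling. Wnt10b stayed at least 2-fold lower under all 8 ways of scaling or background correction, between -2.93 and -1.29. Wnt1 and Lrp5 stayed so under 7 of them, the exception being normexp, with -0.69 for Wnt1 and -0.35 for Lrp5 while the median of all genes was 0.63. Wnt10b was dim on both P7 arrays, and probes of its brightness had a median difference of -0.70. That median covers only probes detected on both arrays, where the lowest detected level was -0.78 in wild type and -3.25 on the Runx2+/- array. These unequal limits favour negative differences among the dimmest probes, so the median is not a clean measure of a brightness trend. With the brightness trend removed in this way Wnt10b was at -2.11, Wnt1 at -1.90 and Lrp5 at -1.71. Fzd5 went from -0.99 to -0.29, while 3 scalings put Fzd5 past 2-fold, down to -1.09. Wnt5b, Ror2 and Ryk turned positive with normexp (0.52, 0.12 and 0.49). Fzd9 and Fzd1 stayed above 0 throughout, from 0.74 to 1.65 and from 0.48 to 1.35. The split of all calls for genotype went from 27.4% higher to 89.3% higher with normexp. That setting added an offset of 50 intensity units, where the 75th percentile of processed signal was 52.1, 22.8 and 124.3 on the 3 arrays. The part of the offset in these shifts was not tested. With normexp, 5 members were called higher: Fzd1, Fzd2, Fzd4, Fzd9 and Lrp6. Under that setting 31.7% of all ordered genes were called higher, so 5 of 15 members lay near the background.

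**Figure D3:**
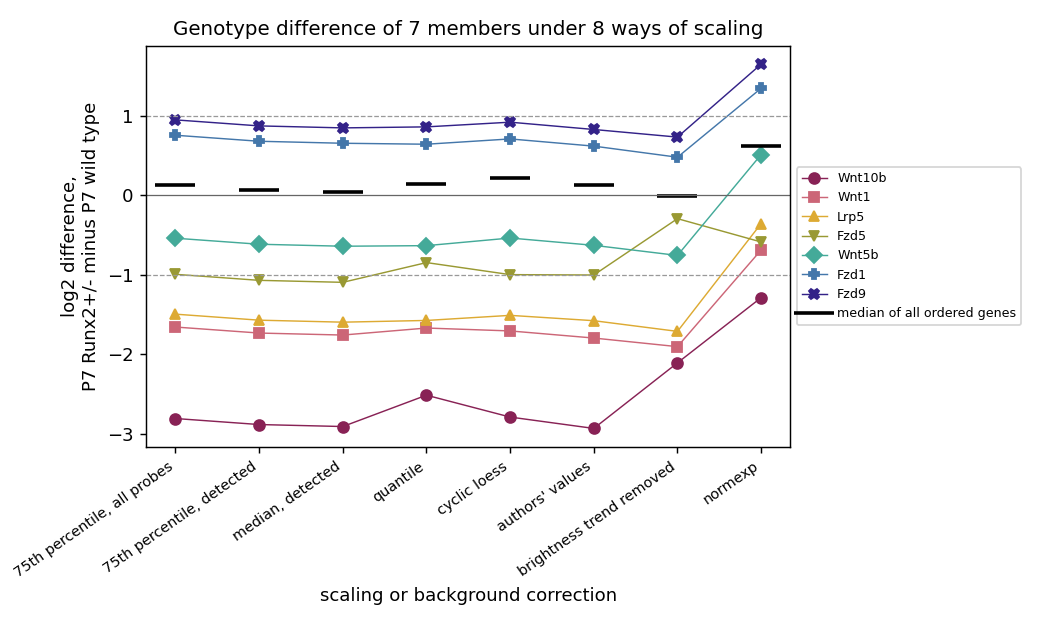
Genotype difference (log2, vertical axis) of 7 members under 8 ways of scaling or background correction (horizontal axis), with black bars for the median of all ordered genes and dashed lines at 2-fold. Wnt10b is lowest at every setting, from -2.93 to -1.29, and every member except Fzd5 is highest with normexp.

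The promoters of the 2 called ligands and of the 2 Frizzleds with the largest positive genotype values are shown to let the regions be read next to these differences. Each line is the 250 bases before the RefSeq start of transcription (GRCm38.p6), 5′ to 3′ on the gene's own strand: chr15:98778151-98778400 (minus) for Wnt10b, chr15:98789607-98789856 (plus) for Wnt1, chr5:4758217-4758466 (minus) for Fzd1 and chr5:135251048-135251297 (minus) for Fzd9. Capitals mark matches, on either strand, to the Runx core letters TGTGGT or TGCGGT or to the Tcf/Lef core letters CTTTGA.
Wnt10b: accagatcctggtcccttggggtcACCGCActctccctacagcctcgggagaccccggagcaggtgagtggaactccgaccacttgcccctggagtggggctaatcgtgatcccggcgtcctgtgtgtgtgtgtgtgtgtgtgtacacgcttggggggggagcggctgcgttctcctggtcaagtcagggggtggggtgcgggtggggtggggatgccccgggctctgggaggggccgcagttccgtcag
Wnt1: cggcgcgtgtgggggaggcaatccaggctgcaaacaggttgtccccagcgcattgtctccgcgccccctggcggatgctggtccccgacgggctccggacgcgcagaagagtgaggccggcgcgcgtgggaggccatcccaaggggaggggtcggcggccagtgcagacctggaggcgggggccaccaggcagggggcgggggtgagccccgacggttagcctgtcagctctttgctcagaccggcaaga
Fzd1: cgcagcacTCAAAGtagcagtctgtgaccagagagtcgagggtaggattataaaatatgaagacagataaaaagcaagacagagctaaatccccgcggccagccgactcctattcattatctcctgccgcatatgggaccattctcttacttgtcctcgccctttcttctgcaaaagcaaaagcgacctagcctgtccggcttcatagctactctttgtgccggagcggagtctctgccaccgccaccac
Fzd9: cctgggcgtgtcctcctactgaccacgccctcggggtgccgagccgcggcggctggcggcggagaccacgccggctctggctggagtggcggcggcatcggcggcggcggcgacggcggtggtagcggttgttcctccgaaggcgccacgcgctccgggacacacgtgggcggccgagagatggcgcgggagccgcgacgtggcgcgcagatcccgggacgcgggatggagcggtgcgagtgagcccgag
Wnt10b held 1 match to TGCGGT on its opposite strand, beginning 226 bases before the start, and no other match. Wnt1 and Fzd9 held none of the 3 motifs in this window, and Fzd1 held 1 match to CTTTGA, 242 bases before the start. TGTGGT occurred in 14.1%, TGCGGT in 5.10% and CTTTGA in 13.8% of all 32851 promoter windows of this length. Among the 27 windows of the 24 members in the table, 1 held TGTGGT, 2 held TGCGGT and 4 held CTTTGA. The windows were rich in G and C, with 66.8% for Wnt10b, 71.6% for Wnt1 and 76.4% for Fzd9, and 51.2% for Fzd1. These matches describe letters and show no binding.

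The P7 wild-type array could not measure 7 of the 22 detected members, so the Runx2+/- array was also set against the P5 wild-type array, where age and genotype cannot be told apart. All 22 had an order there. This comparison had the widest scatter between probes of a gene (root-mean-square SD 0.70) and the steepest rise towards the 3′ end (a median of 0.37 per kb), and the part of these in its calls was not tested. At least 2-fold higher were 4 members (Fzd1, Fzd7, Fzd9 and Wnt16), where the background was 8.67%, and at least 2-fold lower were 5 (Wnt10b, Wnt4, Fzd5, Lrp5 and Wnt1), where it was 15.4%. Wnt10b was 10.3-fold lower (-3.37 ± 0.32), Wnt4 3.83-fold lower (-1.94 ± 0.37) and Fzd5 3.21-fold lower (-1.68 ± 0.22). Lrp5 was at -1.11 ± 0.20 and Wnt1 at -1.07 ± 0.21. Fzd1 was 2.91-fold higher (1.54 ± 0.21), Fzd7 2.32-fold (1.21 ± 0.28), Fzd9 2.30-fold (1.20 ± 0.20) and Wnt16 2.15-fold higher (1.103 ± 0.32). The ligand Wnt11 was 0.92 ± 0.30 and the receptor Fzd3 0.99 ± 0.35 above P5, both under 2-fold. With normexp Wnt4, Fzd5, Lrp5 and Wnt1 lay within 2-fold, at -0.85, -0.94, -0.64 and -0.54, as did Fzd7 and Wnt16 at 0.41 and 0.13, while Fzd2 was called at 1.04. Wnt16 was called under 5 of the 8 scalings, Fzd3 under 4 and Wnt11 under 3, and Fzd9 was at 0.91 with the brightness trend removed. The split of all calls was 36.1% higher, and 23.4% with scaling to probes detected on all arrays, 23.6% with their median and 69.6% with normexp.

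Where a member had more than 1 detected probe, the probes did not always go the same way. Fzd2 was 0.10 ± 0.21 for age with its brightest probe and 1.09 ± 0.36 with the probe nearer the 3′ end, and 0.55 ± 0.21 and -0.42 ± 0.31 for genotype. Lrp6 was -0.16 ± 0.20 for age with its brightest probe and -1.01 ± 0.21 with the probe nearer the 5′ end, and 0.30 ± 0.20 and 0.00 ± 0.21 for genotype. Against P5 the Runx2+/- array was 0.14 ± 0.20 higher with the brightest Lrp6 probe and 2.02-fold lower (-1.01 ± 0.20) with the other, close to the -1.11 of Lrp5, and the mean over both probes was -0.44. Both probes of Wnt16 were above P5 on the Runx2+/- array, by 1.103 and 0.66, the second under 2-fold. The other probe of Fzd5 was detected on the Runx2+/- array only and gave a bound of 0.22 above P5, opposite to the -1.68 of its brightest probe. The calls of Wnt10b and Lrp5 rest on 1 probe each and that of Wnt1 on 1 of 2. Against P5 the calls of Fzd1 and Fzd9 also rest on 1 probe each, and those of Wnt4 and Fzd7 on 1 of 2. The other Fzd7 probe was detected on the Runx2+/- array only, at 24.9 intensity units, and had no order against P5. The called Wnt4 probe gave 15.6 intensity units on the Runx2+/- array, where the lowest detected signal of any probe was 13.1.

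Other genes of the pathway moved in both directions with genotype. Of all ordered genes, 5.2% were called higher and 13.8% lower for genotype, and 6.33% and 3.28% for age. Of 4 genes for the acylation, release and removal of Wnts, Notum, a secreted enzyme that strips the lipid from Wnts, was lower by 2.16 and Trabd2b, a Wnt-cleaving protease, was 1.001 higher. Porcn and Wls, needed to acylate and export Wnts, were at -0.03 and 0.94 and were named, like β-catenin and Axin2 below, after their values were seen. Of 4 ordered R-spondin and receptor turnover genes 3 were called higher: Lgr5 by 2.55, Rspo3 by 1.503 and Rspo1 by 1.16, where Lgr5 is a receptor for the R-spondins that keep Frizzleds on the cell surface. Of 10 ordered secreted inhibitors and helpers 1 was called, the Lrp inhibitor Dkk1, lower by 1.48. Of 10 ordered cytoplasmic genes Dvl3 and Apc were lower by 2.33 and 1.13, Btrc had a bound of 1.01 higher, and β-catenin (Ctnnb1) was at 0.66. Of 10 ordered polarity genes 2 were called lower, Ptk7 by 1.90 and Vangl2 by 1.19, and 2 were called higher, among them Celsr1 (bound 1.83). Of 8 ordered nuclear factors and targets Tcf7 and Tcf7l2 were lower by 1.99 and 1.76 and Nkd1 was 1.31 higher. Axin2, the common readout of β-catenin signalling, was detected on no array. For age, Sfrp2 at 1.25 and Tcf7l2 at 1.06 were called and no other gene of these lists was.

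Cell type markers differed between the arrays alongside these values. Counts of markers here and below stand beside shares of all ordered genes of 5.2% called higher and 13.8% lower for genotype. For age these shares were 6.33% and 3.28%, and for Runx2+/- against P5 they were 8.67% and 15.4%. For each list the summed level, in multiples of the 75th percentile, is given at P5, in wild type at P7 and on the Runx2+/- array, and again without the brightest gene, since that gene carried most of several sums. The sums include probes that were not detected. Of 9 osteoblast markers 8 were called lower for genotype, with a median of -1.91, and the list summed to 4099, 6266 and 1578, or 884.1, 1337 and 266.7 without Col1a2. Of 5 ordered osteoclast markers 4 were lower (150.4, 304.5 and 135.7, or 93.5, 199.7 and 34.9 without Ctsk). Both bone lists were lowest on the Runx2+/- array by either sum. Of 7 ordered chondrocyte markers 4 were higher and 1 lower (17.3, 28.7 and 42.9, or 7.91, 12.2 and 32.6 without Acan). Of 8 suture mesenchyme markers 3 were lower (84.8, 138.7 and 84.1, or 48.8, 94.0 and 60.0 without Postn).

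Among the other cell types, neutrophil markers had 6 of 8 lower for age, and 6 higher and 1 lower of 8 for genotype (881.4, 77.2 and 350.2, or 315.9, 29.5 and 163.3 without S100a9). Of 8 endothelial markers 5 were higher and 1 lower for genotype, and the list summed to 127.1, 120.1 and 213.2, but to 67.4, 70.2 and 61.4 without Egfl7. Macrophage markers summed to 66.0, 74.0 and 82.0 (23.8, 26.2 and 31.1 without Csf1r). Of 7 macrophage markers 2 were called higher and 1 lower for genotype, and 1 higher and 1 lower for age. Skeletal muscle markers summed to 7.80, 5.80 and 5.54 (3.37, 2.82 and 3.21 without Acta1). Of 4 ordered muscle markers 1 was lower for age, none was called for genotype, and 1 was higher against P5. Epidermal markers bear on ligands that skin also makes, such as Wnt4 and Wnt10b. They had 5 of 8 detected at P5, 1 in wild type at P7 and 4 on the Runx2+/- array, with Krt14, Krt1 and Dsp detected on none. Trp63 made up most of their sum (62.1, 52.3 and 17.0), which without it was 4.93, 1.73 and 1.68. In wild type at P7 Trp63 was the only epidermal marker detected, so 1.73 sums undetected values and has no order against the others. For age 2 of 4 ordered epidermal markers were lower, Krt5 with a bound of -1.95 and Krt15 with a bound of -1.27, and against P5 the Runx2+/- array had 3 of 5 lower, with Krt5 13.2-fold lower.

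Snap25 made up most of the neuronal and glial sum (278.9, 254.8 and 66.1), which without it was 12.2, 5.92 and 5.58. Of 6 ordered markers of that list 2 were lower for age, Stmn2 and Tubb3, each by 2.01, and 2 for genotype. Leptomeningeal markers summed to 105.9, 75.8 and 135.3 with Ogn and to 66.9, 21.3 and 22.6 without it. Of 7 ordered ones 3 were lower for age, and against P5 the Runx2+/- array had 3 lower, Ptgds at -3.44 among them, and 1 higher, Ogn at 1.53. The neuronal and leptomeningeal sums without the brightest gene were thus highest at P5, as was that of neutrophil markers. For skeletal muscle the sum without Acta1 was close at P5 (3.37) and on the Runx2+/- array (3.21). Only 4 of 8 muscle markers were detected on any array. The epidermal sum without Trp63 was higher at P5 than on the Runx2+/- array. The part of cell composition in the Wnt10b, Wnt1 and Lrp5 differences was not tested.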

How the data were processed

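Each group's total RNA went, as amplified Cy3-labelled cRNA, onto its own Agilent array, as the labels' protocols state. The authors deposited scanner output whose processed signal is an intensity, background-subtracted and spatially detrended. Per the file headers the software was Agilent Feature Extraction 10.7.1.1, and per the submitters' processing notes it was 9.5.1.1. The authors also deposited a table of intensity values with nearly the same sorted values in all 3 columns. How it was made is not stated in the labels or headers, and it served as an alternative.

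Control and outlier spots were left out, and repeated spots were averaged as log2 values, giving 55680 probes, from which the array's 75th percentile was taken away. For a lower bound, the dim array was set at its lowest detected level, or at the dim probe's own level if that was higher. The brightest probe (highest mean scaled level) stood for a gene. Probe coordinates are those of the files (mm9), and exons or UTRs were not looked up. The accessions of 42 of the 43 member probes matched RefSeq (GRCm38.p6), all 42 under the same symbol. No member spot was saturated. The normexp alternative included an added offset of 50 intensity units.

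The precision is limited by 3 arrays and by signal over background. The members, the 17 gene lists, the tests and the alternatives were chosen with earlier results of these data known. By rule, each detected member is described on every array, undetected members are named, and each pathway list gives up to 3 genes at least 2-fold apart and each marker list up to 2 genes. The brightest gene of each marker list, and the further epidermal and neuronal markers named, were chosen after their values were seen. The comparison of Runx2+/- with P5 and the removal of the brightness trend (the median difference of 8 brightness groups) were added after seeing the data. The steps were tested on simulated data. R 4.3.3, limma 3.58.1, Python 3.11.15 and pandas 2.3.3 were used.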

Additional observations from a re-analysis of the deposited data

How the results depend on the processing

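Counts and medians are of members with an order. No member was called for age by 75th-percentile scaling over all probes. Cyclic loess called 1 of 17 higher (5.51% of all genes), the probe nearest the 3′ end 1 of 15 (5.85%) and the authors' values 2 of 16 (6.95%). The 1.5-fold threshold called 6 higher and 1 lower of 16 (16.1% and 11.3% of all genes). Use of all probes with no filter or floor called 10 higher and 1 lower of 34 (39.0% and 4.18% of all genes). The age median was -0.23 with normexp and 0.61 with no filter. For genotype (3 lower, 0 higher) normexp gave 1 lower and 5 higher of 15 (3.82% and 31.7% of all genes), no filter 13 lower and 1 higher of 34 (47.6% and 4.96%), and the 1.5-fold threshold 2 higher of 18 (19.6%). The genotype median of -0.08 became 0.15 with cyclic loess, -0.32 with the median of detected probes, -0.43 with the brightness trend removed and -0.45 with no filter. For Runx2+/- against P5 (4 higher, 5 lower) normexp gave 1 lower of 22 (4.09% of all genes), no filter 13 lower of 34 (39.3%) with a median of 0.13, the 1.5-fold threshold 8 higher of 22 (24.2%), and the 3-fold threshold 0 higher and 3 lower (1.28% and 6.41%). Fzd5 turned from -1.68 to a bound of 0.22 with the probe nearest the 3′ end. Of the members' own values under the alternatives, 152 for age, 154 for genotype and 200 for Runx2+/- against P5 stayed within the spot SD of a difference, and 19, 28 and 41 moved further. The cause of these changes was not tested. All probes without a filter include values at background, which have no order. No replicate could be left out and no paired analysis was possible because each group has 1 array.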
